A study of Drosophila melanogaster with 2 samples.

Results

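The unfolded protein response mRNAs of stage 14 oocytes were not recovered alike with ME31B. The mRNA of *Atf6*, an endoplasmic reticulum (ER) stress sensor that becomes a transcription factor, lay 4.73-fold above the median gene in the immunoprecipitate relative to the input. The mRNA of *Gcn2*, a kinase of the translation factor eIF2α, was listed at nearly the same input level and lay 6.15-fold below the median gene. The other 6 mRNAs of the group lay between these values, with the transcription factors *crc* and *Xbp1* above the median gene, and the sensor kinases *Ire1* and *PEK* and the ER chaperones *Hsc70-3* and *Gp93* below it. The sides of *Ire1* and *Hsc70-3* depended on the scale. The group consists of 8 genes, *Atf6*, *Xbp1*, *Ire1*, *PEK* (also called PERK), *crc* (the ATF4 gene of the fly), *Hsc70-3* (BiP), *Gp93* (GRP94) and *Gcn2*, and all 8 were found by symbol among the 16863 genes of the deposited table. The members were chosen by their place in the pathway together with the occupancy of *Atf6*, the ratio of immunoprecipitate to input, in these same libraries, so that the values below are a description and were not tested.

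ME31B is a DEAD-box RNA helicase that represses the translation of maternal mRNAs, and the study asked whether its binding to transcripts changes at egg activation. The libraries used here are of the mature oocyte, before activation, so that no change could be examined. Stage 14 oocytes came from w1118;eGFP-Me31B flies of *Drosophila melanogaster*, and this strain is shared by both samples. The input is lysate RNA with no antibody, and the other sample is RNA from an ME31B immunoprecipitate, with 1 library each. The label of the immunoprecipitate names no antibody, the protocol in the labels gives anti-GFP or IgG, and the methods name anti-GFP but also name w1118 flies without the tag for these oocytes. Anti-GFP and the tagged strain are therefore assumptions behind each occupancy. Background RNA recovered with control IgG was not analysed here. The labels name no stress treatment.

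The unfolded protein response adjusts the folding capacity of the ER to its load. Ire1 is a transmembrane kinase and RNase that starts the unconventional splicing of *Xbp1* mRNA, PEK phosphorylates eIF2α, which lowers translation in general while favouring that of *crc*, and Atf6 is cut in the Golgi apparatus in mammals so that its cytoplasmic part can enter the nucleus. Gcn2 also phosphorylates eIF2α, but in response to amino acid shortage. Hsc70-3 and Gp93 are the Hsp70 and Hsp90 of the ER lumen, and their genes are classical targets of the response.

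The authors' values are FPKM (fragments per kilobase of transcript, scaled to the mapped reads of the library), so that levels of different genes can be compared per length. Occupancy is the FPKM in the immunoprecipitate divided by the FPKM in the input. It is given as log2 relative to the median of the 6886 genes that exceeded 0.5 FPKM in each library, because a ratio between separate libraries has no fixed zero. The median gene had an occupancy of 1.26, and the quartiles of the centred values were −0.62 and 0.55. The low values of short genes fell into steps, from which 1 fragment was worth about 0.0925 RPM (the same scale without the length) in the input and 0.0975 RPM in the immunoprecipitate, which corresponds to about 1.08e+07 and 1.03e+07 fragments. From this estimate, 95% exact binomial intervals were computed for the fragments on 1 kb of transcript. They are approximate, cover counting error only and would be narrower for a longer transcript and wider for a shorter one. Since each condition has 1 library, no difference could be set against replicate error, and in bulk lysate fewer cells with an mRNA and less of it per cell cannot be told apart. Germline mRNAs were present, with 8 of 8 markers detected from 5.38 FPKM for *grk* to 921 FPKM for *pgc* in the input. Of 13 eggshell and yolk markers of follicle cells, none was at 0 in the input, where they ranged from 0.215 FPKM for *Vm26Ab* to 520 FPKM for *Cp15*. The median marker of these 13 had 2.00 FPKM there. Together they summed to 864 FPKM before and 498 FPKM after immunoprecipitation, with *Cp15* holding 520 FPKM of the input sum. The 10 markers above the minimum in both libraries had a median centred log2 occupancy of −1.13. For 6 of these 10 (60%) the value was −1 or less, against 15.2% of all genes kept, and for 1 it was 1 or more. The part of follicle cell mRNA in the values below was not tested.

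By a fixed rule of size, 1 of the 8 mRNAs, *Atf6*, exceeded the median gene by 2-fold or more, against 9.48% of all genes kept. At least 2-fold below it lay 2, *Gp93* and *Gcn2*, against 15.2% of all genes kept. These shares rest on 8 genes that were partly chosen for their occupancy, and nothing is read from them. The group median was −0.34, with 3 mRNAs above and 5 below the median gene. Summed over the group, the mRNAs amounted to 472 FPKM before and 732 FPKM after immunoprecipitation, which is 0.30 above the median gene on the log2 scale. The sum is above the median gene and the group median below it. Unlike the group median, the sum weighs each mRNA by its level. *crc*, the most abundant of the 8, held 172 FPKM of the input sum and 357 FPKM of the immunoprecipitate sum, and *Atf6* held 14.4 and 85.7 FPKM.

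**Figure D1:**
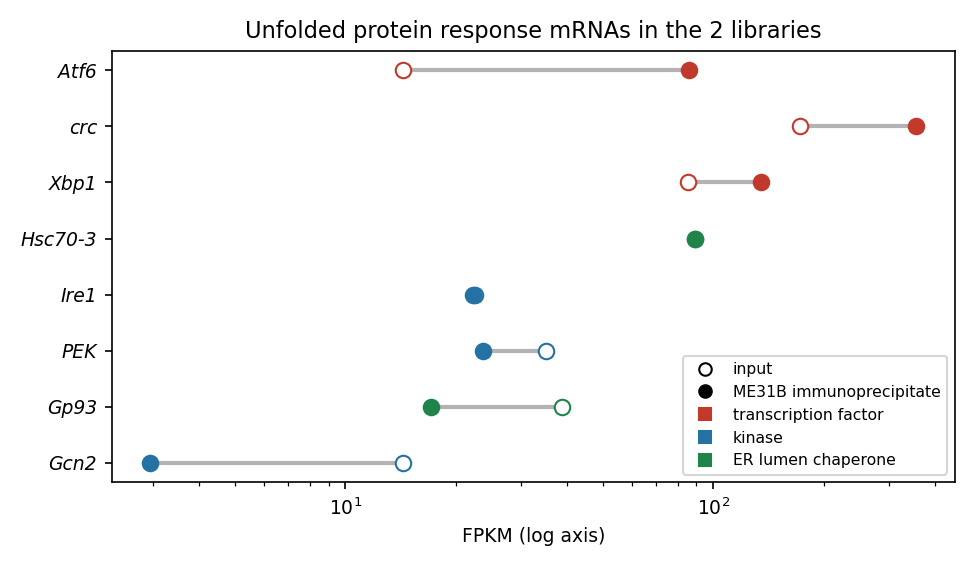
FPKM (log axis) of the 8 unfolded protein response mRNAs in the input (open circles) and the ME31B immunoprecipitate (filled circles), 1 library each, in the order of their occupancy and coloured by the kind of protein they encode. *Atf6* and *Gcn2* start from the same input level of 14.4 FPKM and end at 85.7 and 2.94 FPKM, whereas both circles coincide for *Hsc70-3* and nearly so for *Ire1*.

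*Atf6* was measured at 14.4 FPKM in the input, and at 85.7 FPKM after immunoprecipitation. It was the least abundant of the 8 in the input, ranking 5235th of the 6886 genes, and ranked 2199th in the immunoprecipitate. Its centred log2 occupancy was 2.24 (interval 2.00 to 2.50), and 99.6% of the genes kept had a lower one. Only 28 genes stood higher, of which 10 are annotated as protein-coding. Among 583 other genes with an input FPKM within 20% of its own, the median in the immunoprecipitate was 14.2 FPKM, the upper quartile was 22.8 FPKM, and 3 genes exceeded *Atf6*. The span of *Atf6* (Release 6, chr2R:5144733-5154756, 10024 bp with introns) overlaps no other annotated gene.

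The 3 genes nearest to *Atf6* over the 2 libraries were found by the distance between log2 FPKM values. They were *snRNA:U5:34A*, a spliceosomal RNA, at 16.0 and 92.5 FPKM and a distance of 0.19, *LSm-4*, for a protein of the LSm family, at 13.4 and 105 FPKM and a distance of 0.31, and the microRNA gene *mir-4961* at 11.7 and 69.8 FPKM and a distance of 0.42. *snRNA:U5:34A* and *mir-4961* have spans of 127 and 133 bp, for which FPKM depend strongly on the length assumed, and *LSm-4* overlaps 2 other genes. Among 5683 genes kept with an input of at least 10 FPKM, 8 lay above *Atf6*, of which 2 are protein-coding. This set includes all of the more abundant genes. Because *Atf6* was chosen partly for its occupancy, its place near the top is a description only.

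The other transcription factors of the response were also above the median gene, but by less than 2-fold. *crc* went from 172 FPKM in the input to 357 FPKM in the immunoprecipitate, with a log2 occupancy of 0.71 (interval 0.63 to 0.80), and 81.6% of genes stood lower. *Xbp1* had 85.1 and 135 FPKM, with a log2 occupancy of 0.33 (0.21 to 0.45), and 65.6% of genes stood lower. Of 298 other genes with an input like that of *crc*, 62 were higher in the immunoprecipitate. Of 700 genes with an input like that of *Xbp1*, 318 were higher, so that *Xbp1* lay near the middle of mRNAs of its abundance. Reads of the spliced and unspliced forms of *Xbp1* are not separated in these gene-level values. The span of *crc* (chr2L:21310866-21319527) overlaps that of CG46314, also listed under the name crc-5'utr, by 5168 bp. No row of the table was matched to CG46314, and reads from the shared part may be included in the value of *crc*. *Xbp1* (chr2R:21143545-21145750) overlaps no other gene.

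The position of *crc* on either side of the 2-fold line depended on the scale. Without centring its log2 occupancy was 1.05, and relative to genes of similar genomic span it was 1.19, both past the line. That of *Atf6* stayed between 2.19 and 2.72 under the 9 other settings computed for it. *Xbp1* was between 0.09, when centred on genes of like input, and 0.66, without centring.

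**Figure D2:**
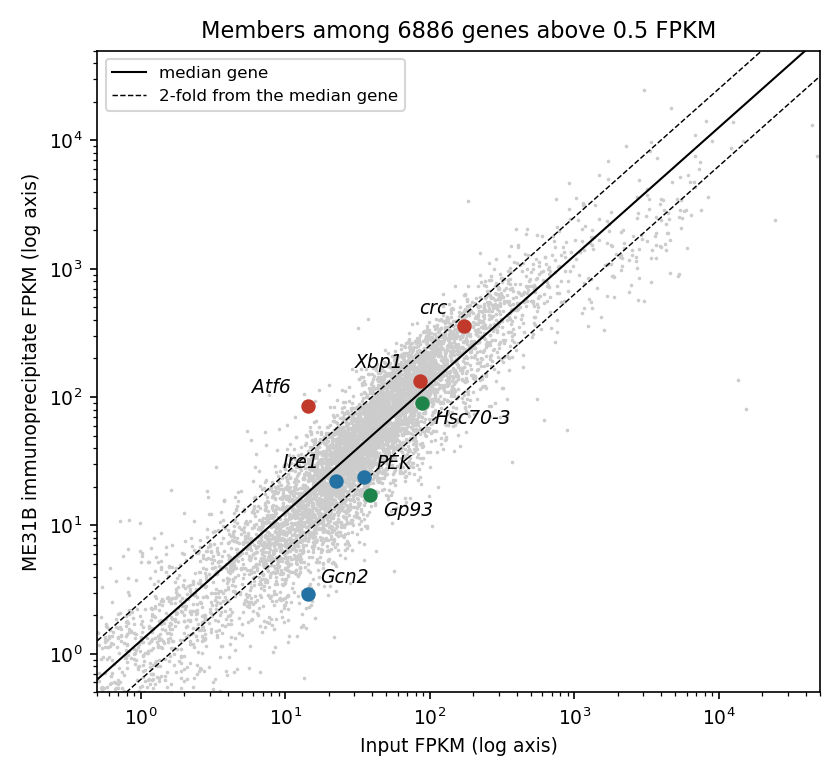
Immunoprecipitate FPKM against input FPKM (both log axes) for the 6886 genes kept (grey), with the 8 unfolded protein response genes coloured as transcription factors (red), kinases (blue) and ER chaperones (green). The solid line is the median gene and the dashed lines are 2-fold from it. *Atf6* lies above the upper line, *Gp93* and *Gcn2* lie below the lower line, and the other 5 lie between the lines.

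The kinase mRNAs were all below the median gene, though to very different degrees, and the side of *Ire1* depended on the scale. *Ire1* was even between the libraries, with an input of 22.5 FPKM and an immunoprecipitate of 22.2 FPKM, which placed it at −0.36 relative to the median gene (interval −0.62 to −0.09). *PEK* went from 35.1 to 23.7 FPKM, a log2 occupancy of −0.91 (−1.14 to −0.67), and 17.7% of genes stood lower. Its interval reaches past the 2-fold line, which *PEK* itself did not pass. *Gcn2* had 14.4 and 2.94 FPKM, a log2 occupancy of −2.62 (−3.24 to −2.06), and 0.90% of genes stood lower. About 30 fragments per kb lay behind its value in the immunoprecipitate, the fewest of the 8, against 155 in the input.

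*Gcn2* and *Atf6* form the widest contrast of the group. Their input levels had a ratio of 1.00, whereas *Atf6* was 29.1-fold higher than *Gcn2* in the immunoprecipitate, a difference of 4.86 in log2 occupancy. Of 584 genes with an input within 20% of that of *Gcn2*, 16 were lower in the immunoprecipitate. With genes above 5 FPKM only, *Gcn2* was left out, since its value in the immunoprecipitate was under that minimum. The spans of *Ire1* (chr3R:19853908-19861291) and *Gcn2* (chr3R:31395660-31402013) overlap those of *MICU3* by 496 bp and *PNPase* by 454 bp. These neighbours stood at −0.90 and −0.66. *PEK* (chr3R:5458563-5464753) overlaps no other gene.

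Of both ER chaperones of the group, only *Gp93* lay more than 2-fold from the median gene. *Hsc70-3* was also even, at 88.9 and 89.3 FPKM, with a log2 occupancy of −0.33 (interval −0.46 to −0.20). *Gp93* had 38.8 and 17.1 FPKM, a log2 occupancy of −1.51 (−1.78 to −1.26), and 6.68% of genes stood lower. Among 988 genes with an input like that of *Gp93*, 40 were lower in the immunoprecipitate, whereas 165 of 674 were lower than *Hsc70-3*. *Hsc70-3* (chrX:11801696-11807117) overlaps no other gene, and *Gp93* (chr3R:27948711-27952151) overlaps CG4951, which stood at 1.00, by 101 bp.

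In the order of occupancy, *Atf6* was followed by *crc*, *Xbp1*, *Hsc70-3*, *Ire1*, *PEK*, *Gp93* and *Gcn2*. *Hsc70-3* and *Ire1* were 0.03 apart with overlapping intervals and could not be told apart at this depth. The intervals of the other neighbours in this order did not overlap, but they leave out differences between replicates, which were not measured. The direction of *Hsc70-3* and *Ire1* depended on the scale. Relative to genes of similar span both were above the middle, at 0.14 and 0.12, and without centring *Hsc70-3* was at 0.01 and *Ire1* at −0.02.

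Genomic span moved with occupancy in these libraries. Over the 6556 protein-coding genes kept and annotated, the Spearman rho between them was −0.45, across genes that share the same 2 libraries and are not independent replicates. With these genes divided by span into 10 bins of equal size, the median occupancy went from 0.57 in the bin of the shortest spans to −0.60 in that of the longest. *Atf6*, *crc* and *Ire1* belong to the ninth bin, from 6955 to 13701 bp, whose median was −0.46 and upper quartile 0.11. Of 655 other genes there, 2 stood above *Atf6*, 43 above *crc* and 284 above *Ire1*. *Gcn2* and *PEK*, of the eighth bin with a median of −0.47, had 11 and 203 of 654 other genes below them, and *Hsc70-3*, of the same bin, had 372. *Gp93*, of the sixth bin with a median of −0.14, had 25 of 656 below it. *Xbp1* has the shortest span of the 8, at 2206 bp, and its bin had a median of 0.03. *Atf6*, *crc*, *Gp93* and *Gcn2* thus lay outside the quartiles of genes of like span, and the other 4 lay within them. Span includes introns and is not transcript length, which was not examined, and its part in the values was not tested.

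**Figure D3:**
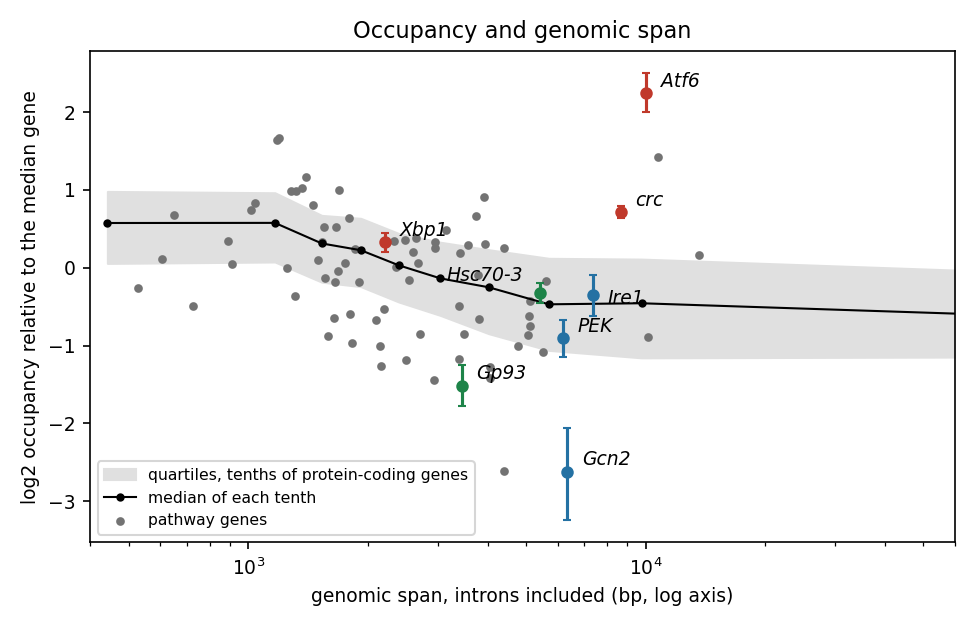
Log2 occupancy relative to the median gene against genomic span (log axis). The black line joins the medians of 10 equal bins of protein-coding genes, drawn at the middle of each bin on the log scale, the grey band spans their quartiles, grey points are the genes of the 5 pathway lists, and coloured points are the 8 members with approximate 95% counting intervals for 1 kb of transcript. The middle of the bin of the longest spans lies beyond the right end of the axis, so that its median is not shown. *Atf6* and *crc* stand above the band, *Gp93* and *Gcn2* below it.

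The genes listed with the processing of the sensors and the splicing of *Xbp1* gave no common direction. Of these 7 genes, none exceeded the median gene by 2-fold and 1 fell short of it by as much, with a list median of −0.59. Of all genes kept, 9.48% were at least 2-fold above and 15.2% at least 2-fold below. *S1P* and *S2P* encode the Golgi proteases that cut Atf6 in mammals. *S1P* went from 16.2 to 25.1 FPKM, at 0.30, and *S2P* had 27.5 and 17.2 FPKM, at −1.01. The mRNAs of *SREBP* and *SCAP*, another substrate of these proteases and its escort in mammals, were at −0.86 and −0.89, far from *Atf6* itself. *Rtcb* (listed as CG9987), the homolog of the RNA ligase that completes *Xbp1* splicing in mammals, was at −0.59, and its cofactor *Archease* (CG6353) at 0.64. *Rtca* (CG4061), an RNA cyclase, was at 0.36. *SREBP* and *SCAP* are on the list though they neither process a sensor of this response nor splice *Xbp1*. Apart from them, *S1P*, *Rtca* and *Archease* lay above the median gene and *S2P* and *Rtcb* below it. The negative sign of the list median therefore depended on including *SREBP* and *SCAP*.

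PEK and Gcn2 act on the eIF2 branch of translation initiation. Of 12 such genes matched of 13 listed, 1 (8.33%) exceeded the median gene by 2-fold or more and none was 2-fold below it, against 9.48% and 15.2% of all genes. The list median was −0.17, and its sign depended on the scale, since it was 0.17 both without centring and without a filter. *eIF-2alpha*, the substrate of both kinases, was at −0.97 from 310 FPKM in the input to 199 FPKM in the immunoprecipitate, *eIF-2beta* was at −0.64 and *eIF-2gamma* at −0.17. The subunits of the exchange factor eIF2B ranged from −0.85 for *eIF2B-epsilon* over −0.36 for *eIF2B-alpha*, −0.18 for *eIF2B-beta* and −0.16 for *eIF2B-delta* to 0.06 for *eIF2B-gamma*. *Gadd34*, a phosphatase subunit that reverses the phosphorylation, was at 0.53. *DENR* and *MCTS1*, whose products allow the translation of *crc* after upstream reading frames, were at 0.74 and −0.05. *Thor*, the fly 4E-BP and a known target of crc, was at 1.64 with only 1.31 FPKM in the input and a wide interval of 0.79 to 2.63. It is the 1 gene of this list past the 2-fold line. Its span is 1179 bp with introns, so that an interval for 1 kb of transcript may be too narrow for it.

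The genes of the 5 pathway lists, the sensor and eIF2 lists included, were spread around the median gene. Of 80 listed, 75 were kept. Of these, 5 (6.67%) were at least 2-fold above and 10 (13.3%) at least 2-fold below it, near the 9.48% and 15.2% of all genes. Of 16 other ER chaperones and folding enzymes kept, 2 were 2-fold above and 4 were 2-fold below, with a median of 0.00. The lowest were *Grp170* (CG2918), a nucleotide exchange factor of the ER Hsp70, at −1.41 and *Calr*, which encodes calreticulin, at −1.26, both near *Gp93*. The highest were *Fkbp14*, a prolyl isomerase, at 1.43 and *Manf*, a secreted factor induced by ER stress, at 1.16. Of 14 genes for ER-associated degradation, 1 was 2-fold below and none was 2-fold above, with a median of 0.21. *TER94*, the ATPase that extracts proteins from the membrane, was at −2.61, from 343 to 70.7 FPKM, *Edem2* at −0.62, *Der-1* at 0.80 and *Ubc6* at 0.91. *Ubc6* was listed by name and is the fly Rad6. Without it the median was 0.16. Of 26 genes for ER targeting, translocation and N-glycosylation, 2 were 2-fold above and 4 were 2-fold below, with a median of 0.03. *Sec61gamma* was at 1.67 and *SsRbeta* at 1.02, and the oligosaccharyltransferase genes *Stt3B* (*OstStt3*) and *Stt3A* (CG1518) at −1.44 and −1.28. The Spearman rho with span over 82 of the members and pathway genes was −0.35.

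**Figure D4:**
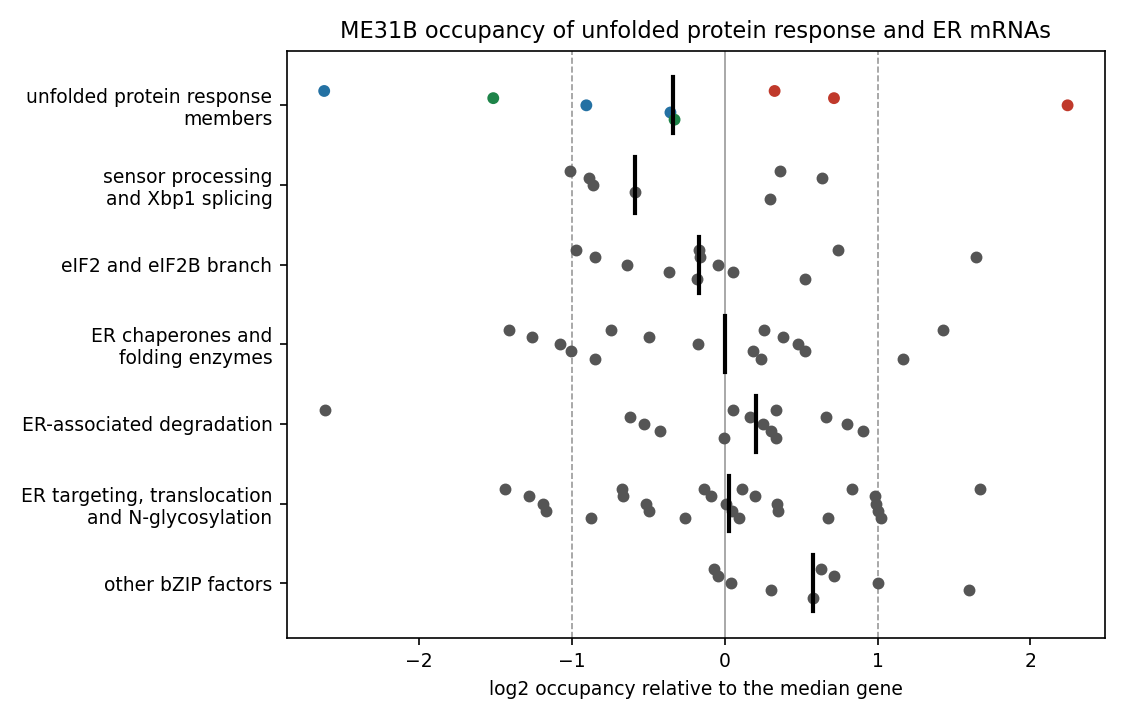
Log2 occupancy relative to the median gene for the 8 members (coloured as transcription factors in red, kinases in blue and ER chaperones in green), the 5 pathway lists and other bZIP factors, with 1 point per gene above 0.5 FPKM in both libraries. Black bars are list medians, the solid line is the median gene and dashed lines are 2-fold from it. *Atf6* is the highest and *Gcn2* the lowest point of the plot, closely followed by *TER94*.

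Atf6, Xbp1 and crc belong to the bZIP family, which dimerises through a leucine zipper. Of 17 other bZIP genes, 9 were kept, and 3 were listed at 0 FPKM in the input. Of the 9, 7 lay above the median gene, as did by definition 3443 of all 6886 genes kept. Of the same 9, 1 (11.1%) was at least 2-fold above it and none was 2-fold below it, against 9.48% and 15.2% of all genes. The median of the 9 was 0.58, and without a filter, with the genes near 0 included, it was 0.26. The middle of the 3 members was at 0.71. *Irbp18* (CG6272) was the highest, at 1.60 from 42.7 to 163 FPKM, followed by *maf-S* at 1.00. *REPTOR-BP* was at 0.04 and *cnc* at −0.05. None reached *Atf6*, and the first 2 have spans of 741 and 693 bp, where the median gene of like span was itself at 0.57.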

How the data were processed

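RNA from 1 input lysate and 1 ME31B immunoprecipitate was depleted of rRNA, made into libraries with a stranded kit and sequenced by the authors from a single end. For FASTQ conversion the submitters' processing notes and the methods name bcl2fastq 2.17, for mapping STAR 2.5.2a with the dm6 genome, and for quantification Cufflinks 2.2.1. The deposited values are FPKM per gene, with no scaling between the libraries stated. Not given in the sources used here are whether quantification used the strand and how multi-mapping reads were handled, so reads of overlapping genes may be shared.

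Occupancy was computed without a pseudocount where both libraries exceeded 0.5 FPKM, a minimum taken from the study's methods, and centred on the median gene (Python 3.11.15, pandas 2.3.3). No test was made. Depth was estimated as the most frequent value of FPKM times effective length over genes with spans of 400 to 2500 bp, assuming a mean fragment of 200 bases. Genes were matched to RefSeq Release 6 by symbol, locus tag or a synonym held by 1 gene, for 6845 of 6886 genes. *Gcn1* was not matched. The members and gene lists were chosen with earlier results of these data known. Named genes are the members, all genes kept of the sensor and eIF2 lists, the 2 highest and 2 lowest of each other list with at least 1 FPKM in the input, the 3 genes nearest to *Atf6* and the most and least abundant markers. Other genes are named after their values were seen. The arithmetic of the centred occupancy was checked on simulated data with planted shifts beyond the 2-fold line and no counting error. That check does not bear on the depth estimate or the intervals. No sequence is shown.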

Additional observations from a re-analysis of the deposited data

How the results depend on the processing

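No paired analysis was possible because there is only 1 input and 1 immunoprecipitate. Centring by genomic span was chosen after seeing the data, and centring by protein length was not run because no protein lengths were at hand. Over the whole table, 653 genes above and 1048 below became 1395 and 630 without centring, since the median gene shifts by 0.33. Over 9 other settings, *PEK* ranged from −0.97 to −0.44 and *Gp93* from −1.58 to −1.16, and *Gcn2* from −2.63 to −2.11 over 8. Besides *Atf6*, *crc* passed the 2-fold line without centring, without a filter (pseudocount 0.5) and when centred by span, giving 2 mRNAs above it, as did a 1.5-fold rule. Above 5 FPKM, and with a 3-fold rule, 1 mRNA was below, *Gcn2* having been left out in the first case and *Gp93* not reaching the line in the second. Among the pathway genes kept in each setting, 5 above and 10 below (of 75) became 13 and 3 both without centring and without a filter, 15 and 22 with a 1.5-fold rule and 2 and 1 with a 3-fold rule. Pathway genes above were 3 both with genes above 5 FPKM and when centred by input, and 8 when only the input was filtered, with pseudocount 0.1. The shares of all genes moved too. Above and below the line were 20.3% and 9.15% without centring, and 8.66% and 3.93% without a filter. With a 1.5-fold rule they were 23.8% and 26.3%, and with a 3-fold rule 1.79% and 5.95%. With genes above 5 FPKM they were 8.17% and 13.2%, and centred by span 7.38% and 11.9%. Those above were 9.19% of all genes when centred by input, and 10.4% when only the input was filtered. Without centring, the list medians became −0.26 (sensor processing), 0.17 (eIF2), 0.34 (chaperones), 0.54 (degradation), 0.36 (ER targeting) and 0.91 (bZIP). Without a filter those other than chaperones became −0.25, 0.17, 0.50, 0.36 and 0.26. In that setting the median gene is at 0, since 7110 genes have 0 FPKM in both libraries. When centred by input, the degradation list was at 0.041 and ER targeting at −0.21, and when centred by span ER targeting was at −0.24.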

Other observations

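mRNAs for subunits of 6 ER complexes are given here by complex, which were looked at after their values were seen. For the Sec61 channel, through which proteins enter the ER, *Sec61gamma* was at 1.67, *Sec61beta* at 0.05 and *Sec61alpha* at −1.17, with spans of 1192, 911 and 3394 bp. For the signal peptidase, which removes signal sequences, *Spase22-23* and *Spase25* were at 1.00 and 0.99, and *Spase12* and *twr* at 0.11 and −0.13. For the signal recognition particle, *Srp14* was at 0.67, *Srp9* at 0.35, *Srp72* at 0.35, *Srp68* at 0.01, *Srp19* at −0.50 and *Srp54k* at −0.67, and for its receptor *SrpRbeta* was at 0.98 and *Gtp-bp* at −0.51. For the oligosaccharyltransferase, which attaches N-glycans, 5 of 6 were below the median gene, as were by definition 3443 of all 6886 genes kept. *OstStt3* was at −1.44, CG1518 at −1.28, *OstDelta* at −1.19, *Ost48* at −0.87, *l(2)k12914* at −0.26 and *Ostgamma* at 0.10. For the translocon-associated TRAP complex, *SsRbeta* and *Tapdelta* were at 1.02 and 0.83, with spans of 1367 and 1036 bp. The bins of protein-coding genes with these spans had medians of 0.31 and 0.58. The part of span in the values of these complexes was not tested.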
